A study of Mus musculus with 4 samples.

Results

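The cell cycle and DNA replication genes of the heart examined here are 57 genes chosen by symbol, out of 23282 rows of the heart mRNA-seq data, and where a symbol had more than 1 row the row with the highest mean was used. Of these, 30 act in S phase, 26 act in mitosis, and Stmn1, which destabilizes microtubules, was placed in neither group. The 4 libraries came from hearts of male CDF1 mice, with 1 library per group. E(−)T(−) was the normal control and E(−)T(+) the cancer control, while E(+)T(−) is called normal exercise here and E(+)T(+) is called cancer exercise. T(+) mice received CT26 cells, a murine colorectal cancer line, through the tail vein, and E(+) mice ran on a treadmill at high intensity. The T(−) mice carried no cancer cells, the E(−) mice did not run, and no genetic change was made in any group. The label gives day 28 after birth for all libraries, which the study's methods give as the age at purchase, and how many hearts entered a library is not given in the sources used here. With 1 library per group there is no replicate check, no p-value is given, and all intervals below cover counting error only.

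A cell that divides first licenses its replication origins with the MCM helicase, then copies its DNA with polymerases, a sliding clamp and a supply of deoxynucleotides, and later separates the copies on a spindle under the control of CDK1 and its cyclins. Genes for the first steps are classically driven by E2F factors at their promoters, and genes for mitosis by complexes that bind CHR elements together with CCAAT boxes. Cardiomyocytes of the mature heart rarely divide, and the heart also holds endothelial cells, fibroblasts, macrophages and blood.

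The promoters below show the sequence features that separate the 2 groups and that the choice of genes did not use. RefSeq promoters of GRCm38.p6, from 250 bases before to 50 bases after the start, were at hand for 46 of the 57 genes, and the most upstream one was read where a gene had several. Mcm4, Gins1, Gins2, Pole, Ccne2, Ccna2, Foxm1, Aurkb, Kif20a, Tpx2 and Stmn1 had none in the table. An E2F motif (TTTCCCGC, TTTGGCGC, TTTCGCGC or TTTGCCGC, both strands) stood in 10 of 25 S phase promoters and in 1 of 21 mitotic promoters, that of Cdk1, against 2.94% of 17492 protein-coding promoters. A CHR motif (TTTGAA or TTCGAA, both strands) stood in 7 of 25 S phase and in 15 of 21 mitotic promoters, against 18.2% of protein-coding promoters. A CCAAT box (CCAAT, both strands) stood in 16 of 25 and 18 of 21, against 39.2%, and all 15 mitotic promoters with a CHR motif also held a CCAAT box, against 7.47% with both among protein-coding promoters. No E2F match overlapped a CHR match in these promoters. For 2 S phase and 2 mitotic genes whose values are given below, the whole promoter is shown, E2f2 at chr4:136172024-136172323 (plus strand), Mcm6 at chr1:128359656-128359955 (minus strand), Mki67 at chr7:135716330-135716629 (minus strand) and Plk1 at chr7:122159185-122159484 (plus strand), in lower case with every match of the 3 motifs in capitals.
E2f2: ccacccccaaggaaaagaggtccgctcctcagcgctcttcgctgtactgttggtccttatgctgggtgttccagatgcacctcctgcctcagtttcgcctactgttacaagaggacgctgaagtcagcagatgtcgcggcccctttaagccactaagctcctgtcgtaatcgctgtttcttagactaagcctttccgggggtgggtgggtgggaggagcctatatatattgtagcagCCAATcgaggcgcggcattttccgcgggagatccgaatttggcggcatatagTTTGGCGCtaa
Mcm6: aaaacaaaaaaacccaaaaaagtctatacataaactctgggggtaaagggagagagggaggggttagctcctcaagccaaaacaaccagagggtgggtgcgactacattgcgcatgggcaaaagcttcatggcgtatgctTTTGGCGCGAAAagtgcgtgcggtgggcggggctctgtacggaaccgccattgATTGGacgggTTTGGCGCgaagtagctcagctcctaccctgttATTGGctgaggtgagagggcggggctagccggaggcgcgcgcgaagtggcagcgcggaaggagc
Mki67: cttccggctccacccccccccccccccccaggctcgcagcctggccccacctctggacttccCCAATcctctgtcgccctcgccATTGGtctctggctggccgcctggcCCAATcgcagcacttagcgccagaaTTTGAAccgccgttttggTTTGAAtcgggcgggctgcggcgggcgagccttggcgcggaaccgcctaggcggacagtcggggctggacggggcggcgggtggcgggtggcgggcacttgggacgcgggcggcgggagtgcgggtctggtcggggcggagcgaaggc
Plk1: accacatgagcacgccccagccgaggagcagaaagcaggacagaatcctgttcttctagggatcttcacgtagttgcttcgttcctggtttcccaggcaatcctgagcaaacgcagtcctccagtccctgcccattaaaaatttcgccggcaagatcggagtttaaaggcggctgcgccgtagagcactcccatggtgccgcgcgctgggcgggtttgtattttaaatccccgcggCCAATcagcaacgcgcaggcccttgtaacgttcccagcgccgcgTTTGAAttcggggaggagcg
In the E2f2 promoter the capitals mark 1 CCAAT box and 1 E2F motif, and in the Mcm6 promoter 3 E2F motifs, of which the 2 on opposite strands overlap, and 2 CCAAT boxes. In the Mki67 promoter they mark 2 CHR motifs and 3 CCAAT boxes, and in the Plk1 promoter 1 of each. A match is a description of these letters and shows no binding.

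The deposited value is log2(normalized read count + 1), and a log2 fold change here is the difference of 2 deposited values, so that changes at low read numbers come out too small. Whole reads were recovered from the deposited values, and the totals ran from 6595422 to 11545965 reads per library. The share of globin reads was 37.3% in E(+)T(+) and 7.86% to 8.76% in the other libraries. Read numbers below stand in the order E(−)T(−), E(+)T(−), E(−)T(+), E(+)T(+). A gene was called higher or lower when its normalized read count reached 4 in at least 1 of the 2 libraries and it differed by at least 2-fold. A stricter call also asked that the 95% Clopper-Pearson interval of the read ratio, at the libraries' effective sizes, lay on that side. The markers of cardiomyocytes, such as Myh6 and Tnnt2, were abundant in every library, with 316470 to 433652 summed reads.

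All 57 genes had reads in at least 1 library, and most had few. The median of the S phase genes was 30.5, 28.5, 48.5 and 50 reads, and that of the mitotic genes 13, 25, 51.5 and 51.5 reads. The values lay highest in E(+)T(+) for 21 of 30 S phase and 17 of 26 mitotic genes, against 23.8% of the 14910 genes that reached the count minimum in some library. They lay lowest in E(+)T(−) for 18 of 30 S phase and 11 of 26 mitotic genes, against 22.1%, while E(−)T(−) was the lowest library for 5 S phase and 12 mitotic genes. Both T(+) libraries stood above both T(−) libraries for 20 of 30 S phase and 22 of 26 mitotic genes, against 27.1% of all genes, and the reverse held for 0 S phase and 2 mitotic genes, against 27.8%. The 2 mitotic genes below in both T(+) libraries were Cenpa and Kif20a. In whole-heart RNA, fewer cells of a type and less RNA per cell cannot be told apart.

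**Figure D1:**
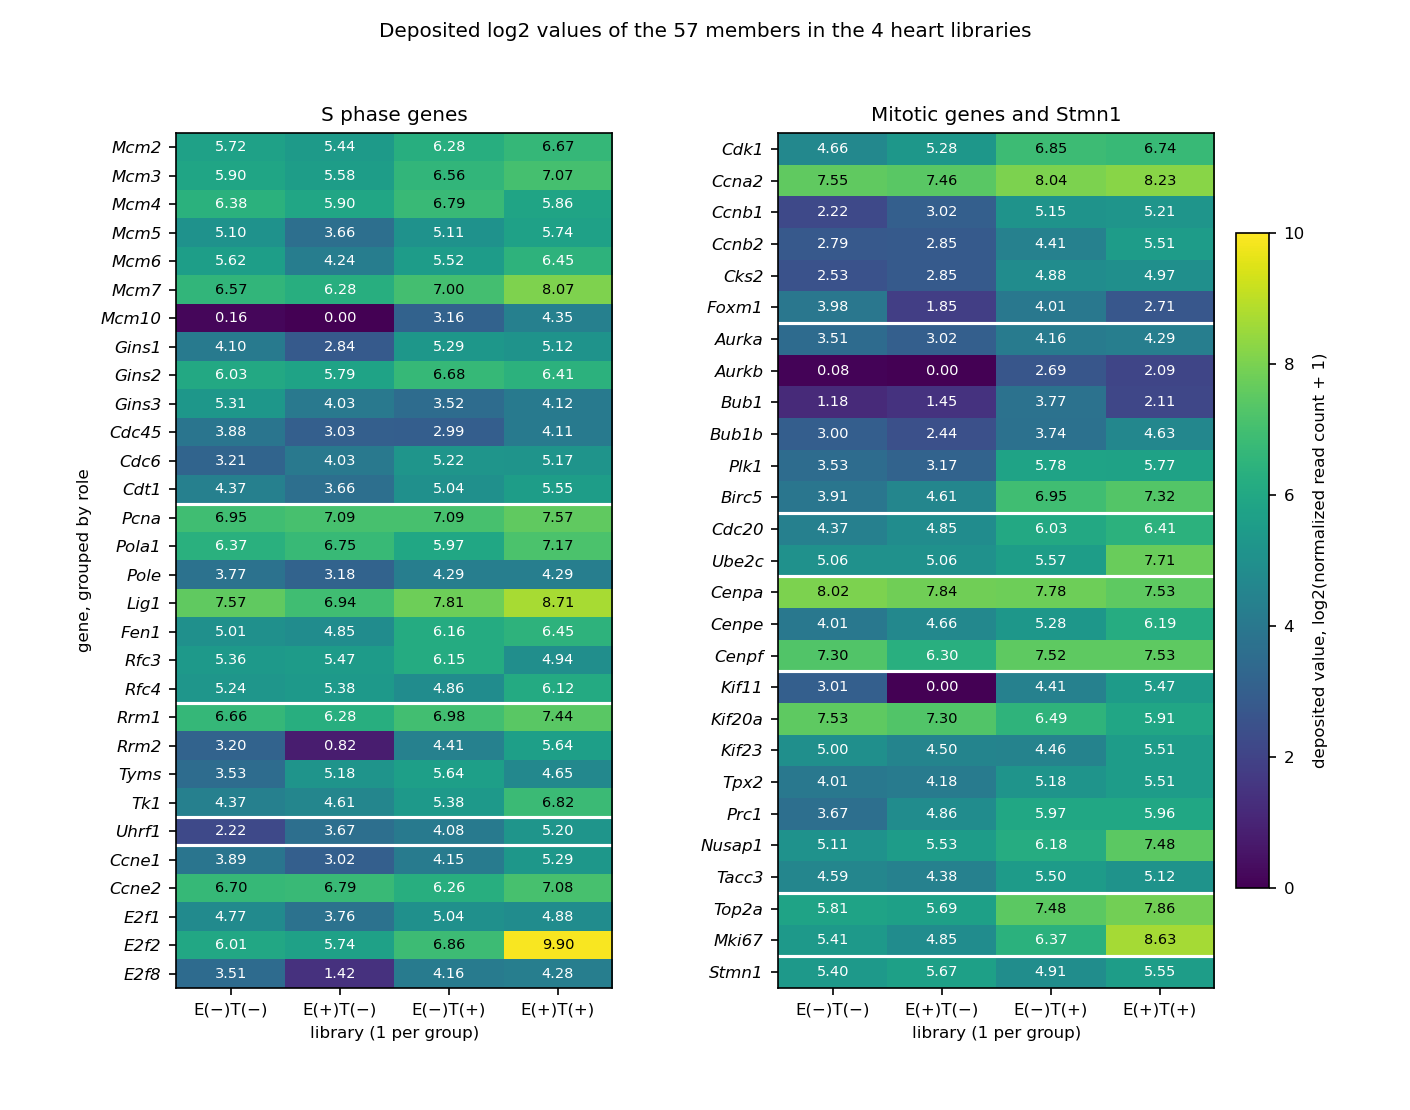
Deposited values, log2(normalized read count + 1), of the 30 S phase genes (left) and of the 26 mitotic genes and Stmn1 (right) in the 4 libraries, 1 per group, with white lines between roles. The value of E2f2 reached 9.90 in E(+)T(+), against 6.86 or less elsewhere, and Mcm10, Aurkb and Kif11 stood at 0.00 in E(+)T(−).

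The counts of some genes could not be told apart from those of a gene on the other strand. Over the last 500 bases, where 3′ reads fall, 11 of the 57 genes overlap a gene on the opposite strand and 2 overlap one on the same strand, and whether the counting used strand is not given in the sources used here. Ccna2 had 163, 193, 298 and 274 reads, and Exosc9, opposite to it, had 182, 218, 294 and 281. Kif20a had 160, 173, 101 and 54 reads, and Cdc23, opposite to it, had 154, 170, 87 and 47. Gins2 had 56, 60, 115 and 77 reads beside 73, 88, 153 and 107 of Gse1. The values of Ccna2 and Kif20a, and less closely of Gins2, therefore follow those of their partners in all libraries, and the results on the mitotic group are also given without Ccna2 and Kif20a.

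The comparison E(−)T(+) vs. E(−)T(−) asks how the heart of a cancer-bearing mouse differed from that of a healthy mouse at rest. The mitotic genes led the differences, from cyclin B1 and CDK1 to survivin. Of 26 mitotic genes, 15 were called higher and 1 lower, and of 30 S phase genes 8 were called higher and 1 lower, where 14.6% of 14317 genes were called higher and 13.1% lower. By the stricter call, 14 mitotic and 8 S phase genes were higher, against 11.7% of all genes. The median log2 fold change was 1.22 for the mitotic genes (1.12 with Aurkb at its bound) and 0.54 for the S phase genes, against -0.01 for all genes. Summed reads at effective library size were higher by 0.67 (95% interval 0.56 to 0.78) on the log2 scale for the mitotic and by 0.39 (0.29 to 0.49) for the S phase genes. Without Ccna2 and Kif20a the mitotic sum was higher by 0.92 (0.79 to 1.04). With scaling to library size, which moved the median of all genes to -0.16, the 2 medians were 1.07 and 0.40.

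Several regulators of mitosis were among the genes with large differences. Birc5, survivin of the chromosomal passenger complex, had 12, 26, 139 and 145 reads. It was higher in the cancer control by 3.04 (95% interval of the read ratio 2.31 to 4.14), and both T(+) libraries lay above both T(−) libraries. Ccnb1, cyclin B1, had 3, 8, 39 and 33 reads and a log2 fold change of 2.93 (1.67 to 5.66). Its partner Cdk1, the kinase of mitotic entry, had 21, 42, 129 and 97 reads and a log2 fold change of 2.18 (1.57 to 2.98). Here too the T(+) and T(−) libraries did not overlap. Cks2, a small subunit of CDK complexes, had 4, 7, 32 and 28 reads, with a log2 fold change of 2.34 (1.13 to 4.58). Ccnb2, cyclin B2, had 5, 7, 23 and 41 reads, and its log2 fold change was 1.62 (0.40 to 3.58). Plk1, a kinase of the spindle poles and kinetochores, had 9, 9, 61 and 49 reads and was higher by 2.25 (1.36 to 3.58). Other genes of these roles differed little. Foxm1, a transcription factor of mitotic genes, had 13, 3, 17 and 5 reads, 0.04 (-1.12 to 1.17), and Aurka, the centrosome kinase, had 9, 8, 19 and 17 reads, 0.65 (-0.51 to 2.03).

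Some genes of the spindle, the kinetochore and the chromosomes were also higher in the same comparison. Of 7 spindle and cytokinesis genes 4 were called higher, of 3 centromere and kinetochore genes 1, and of 2 chromosome genes 1. The share of all genes called higher was 14.6%. Prc1, which bundles the midzone microtubules, had 10, 31, 70 and 56 reads and was higher by 2.31 (1.47 to 3.55). Top2a, the topoisomerase that untangles sister chromatids, had 48, 56, 201 and 211 reads and was higher by 1.66 (1.23 to 2.17). Cdc20, which activates the anaphase-promoting complex, had 17, 31, 73 and 77 reads and was higher by 1.66 (0.95 to 2.58). In these 3 genes the T(+) libraries stood apart from the T(−) libraries. Cenpe, a kinetochore motor, was higher by 1.27 (0.43 to 2.37), Tpx2, a spindle assembly factor, by 1.18 (0.31 to 2.27) and Nusap1, a spindle protein, by 1.07 (0.48 to 1.77). Bub1, a checkpoint kinase, had 1, 2, 14 and 3 reads, a log2 fold change of 2.59 (0.71 to 8.83) that rests on 1 read in the control. Aurkb, the kinase of the passenger complex, had 0 reads in both T(−) libraries and 6 and 3 in the T(+) libraries, at least 1.54-fold higher in the cancer control against a floor of 3 reads, with an interval that held no difference. Kif20a, a kinesin of cytokinesis whose reads match those of Cdc23, was lower, with a log2 fold change of -1.03 (-1.42 to -0.67). Cenpa, the histone of centromeres, differed little, with 226, 253, 248 and 168 reads and -0.24 (-0.51 to 0.02). Bub1b, at 0.74, Mki67, at 0.96, Tacc3, at 0.91, Cenpf, at 0.22, and Kif23, at -0.53, were not called.

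Among the S phase genes, 3 of the 4 for nucleotide supply, the licensing factor Cdc6 and some others were called higher in the cancer control. Of 13 licensing and helicase genes 3 were called higher and 1 lower. Of 7 polymerase, clamp and ligase genes 1 was called higher, and of 5 cyclin E and E2F genes 0. Over all genes, 14.6% were called higher and 13.1% lower. Tyms, thymidylate synthase, had 9, 39, 55 and 22 reads and a log2 fold change of 2.11 (1.21 to 3.44). Cdc6, which loads the MCM helicase, had 7, 17, 41 and 32 reads, with 2.02 (1.001 to 3.57). Rrm2, the inducible subunit of ribonucleotide reductase, had 7, 1, 23 and 45 reads, with 1.21 (0.07 to 2.80). Of the 4 nucleotide genes, 3 were called higher, the third being Tk1, thymidine kinase, at 1.003 (0.23 to 1.95), which came to 0.85 with scaling to library size and was then not called. Fen1, the flap endonuclease, was higher by 1.16 (0.54 to 1.88) and Gins1, of the helicase complex, by 1.19 (0.34 to 2.23). Uhrf1, which passes on DNA methylation, had 3, 13, 18 and 33 reads, a log2 fold change of 1.86 (0.43 to 4.61). Mcm10, which starts the helicase, had 0, 0, 9 and 18 reads and was at least 2.31-fold higher. The MCM subunits differed little, from -0.10 for Mcm6 to 0.67 for Mcm3, and none of Mcm2 to Mcm7 was called. Gins3, another helicase subunit, was lower, with 34, 17, 12 and 15 reads and -1.79 (-2.96 to -0.90).

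The summed reads of a list of neutrophil precursor markers were higher in the T(+) libraries. The 11 markers summed to 13 and 16 reads in the T(−) and 324 and 305 in the T(+) libraries. In the cancer control, 7 of 7 that passed the count minimum were called higher. Chil3, with 7, 3, 170 and 83 reads, and Ngp, with 1, 2, 62 and 123, had the most. Elane, with 0, 1, 4 and 0 reads, and Ms4a3, with 0, 0, 0 and 1, did not reach the minimum. Cebpe and Fcnb had 0 reads in all 4 libraries. The 10 macrophage markers summed to 2734, 4254, 7340 and 3537 reads, with 7 of 10 called higher in the cancer control. The 10 epithelial carcinoma markers summed to 114, 97, 228 and 167 reads, and of the 6 that passed the count minimum 2 were called higher and 1 lower in the cancer control. Krt20 had 2, 2, 78 and 21 reads, Krt19 had 58, 45, 34 and 49, and Elf3 had 0 in all libraries. The 12 lymphocyte markers summed to 78, 70, 37 and 76 reads. Of 16 erythroid markers past the count minimum, 5 were called higher and 1 lower in the cancer control. The shares over all genes were 14.6% and 13.1%. The part of these cells in the values of the cell cycle genes was not tested.

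**Figure D2:**
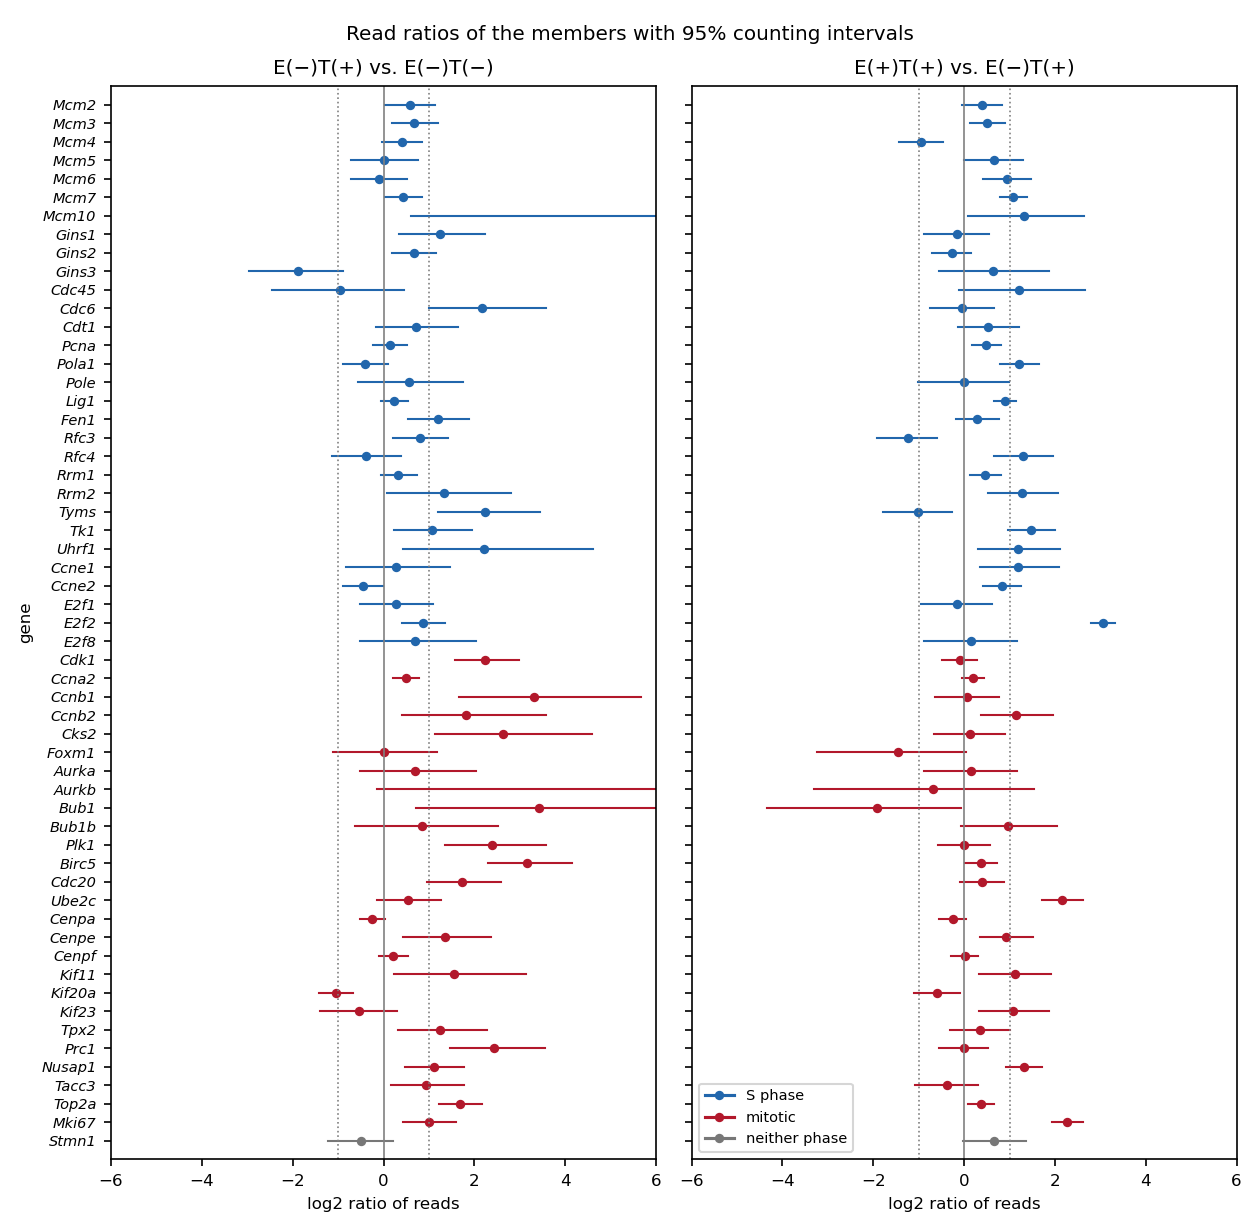
Log2 ratio of reads at effective library size (points) with its 95% Clopper-Pearson interval (lines) for each of the 57 genes, in E(−)T(+) vs. E(−)T(−) (left) and in E(+)T(+) vs. E(−)T(+) (right), with dotted lines at a 2-fold difference and lines that run to the edge where the interval goes past the axis. On the left, among genes with reads in both libraries, Bub1, which had 1 read in the control, Ccnb1 and Birc5 lie farthest to the right, and on the right E2f2, Mki67 and Ube2c stand apart, at 3.04, 2.26 and 2.14 as log2 fold changes.

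The comparison E(+)T(+) vs. E(−)T(+) asks how running changed the heart of cancer-bearing mice. E2f2, Mki67 and Ube2c were higher by over 4-fold in the cancer exercise library, and the CDK1 and cyclin B1 genes were not called. Of 30 S phase genes 10 were called higher and 1 lower, and of 26 mitotic genes 6 higher and 2 lower, where 9.39% of 14363 genes were called higher and 10% lower. By the stricter call these were 9 and 1 S phase genes and 6 and 1 mitotic genes, against 6.94% and 7.23% of all genes. The median log2 fold change was 0.56 for the S phase and 0.16 for the mitotic genes, and with scaling to library size it turned to -0.01 and -0.41, where the median of all genes went from -0.01 to -0.61. Relative to the median of all genes, the 2 medians were 0.57 and 0.17 as deposited and 0.59 and 0.20 with that scaling. With it, 3 of the 57 genes were called higher and 7 lower, in place of 16 and 3. The share of all genes called at that scaling was not counted. With scaling to the reads outside genes over 1% of a library, 15 were called higher and 4 lower, and the median of all genes was -0.08. Summed reads were higher by 0.92 (0.84 to 1.004) for the S phase genes and by 0.50 (0.41 to 0.58) for the mitotic genes, and the latter turned to -0.09 (-0.18 to -0.01) with scaling to library size.

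A few genes carried much of the sums. E2f2, an E2F activator, had 55, 58, 131 and 876 reads, with a log2 fold change of 3.04 (2.79 to 3.33). It took 27.6% of the S phase reads of E(+)T(+), and without it the S phase sum was higher by 0.55 (0.46 to 0.64). Mki67, which coats mitotic chromosomes and codes for the antigen Ki-67, had 36, 31, 93 and 363 reads, with a log2 fold change of 2.26 (1.94 to 2.62). Ube2c, the ubiquitin-conjugating enzyme of anaphase, had 28, 36, 53 and 191 reads and 2.14 (1.71 to 2.63). In all 3 genes the cancer exercise library was far above the other libraries, and the cancer control was above the T(−) libraries. Tk1 had 17, 26, 46 and 103 reads, with 1.45 (0.96 to 2.01). Nusap1 had 29, 50, 81 and 163 reads, with 1.30 (0.93 to 1.72). Both were highest in the cancer exercise library and next highest in the cancer control.

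Among the other S phase genes, polymerase and helicase parts differed from one another. Pola1, the catalytic subunit of polymerase alpha, had 71, 118, 70 and 131 reads, with 1.203 (0.79 to 1.65). Its 2 E(+) libraries lay above its 2 E(−) libraries, an order whose share over all genes was not counted. Between the normal exercise and normal control libraries, Pola1 differed by only 0.39 (-0.05 to 0.84), and this interval held no difference. Rfc4, of the clamp loader, had 32, 45, 32 and 63 reads, with 1.26 (0.65 to 1.95), while Rfc3 of the same complex had 35, 48, 79 and 27 reads, with -1.21 (-1.93 to -0.59). Mcm7 had 82, 85, 144 and 246 reads, with 1.07 (0.78 to 1.39), while Mcm4 of the same ring had 72, 65, 124 and 52 reads, with -0.93 (-1.44 to -0.47). So these subunits of 1 complex went opposite ways in both cases, though Mcm4 was not called. Mcm2, Mcm3, Mcm5 and Mcm6 lay between 0.38 and 0.92. Over their 3′ ends Mcm7 overlaps Cops6 and Rfc4 overlaps Eif4a2 on the opposite strand, at 0.18 and 0.35 in this comparison. Whether the counts of Mcm7 and Rfc4 hold reads of these genes was not tested. Lig1, the ligase that joins Okazaki fragments, had 165, 135, 253 and 381 reads, with 0.90 (0.67 to 1.14). Ccne1, cyclin E1, was higher by 1.14 (0.35 to 2.08), Uhrf1 by 1.13 (0.31 to 2.10) and Rrm2 by 1.23 (0.52 to 2.07). Tyms stood at -0.99 (-1.80 to -0.28), just short of the 2-fold call. E2f1, another E2F activator, had 23, 14, 36 and 26 reads, with -0.16 (-0.95 to 0.61), and E2f8, an E2F repressor, had 9, 2, 19 and 17 reads, with 0.12 (-0.88 to 1.17).

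Several mitotic genes that were called higher in the cancer control than in the normal control differed little here, in a comparison that shares the cancer control library with the one above. Cdk1 differed by -0.10 (-0.50 to 0.29), Ccnb1 by 0.05 (-0.65 to 0.78), Plk1 by -0.02 (-0.58 to 0.56) and Prc1 by -0.02 (-0.55 to 0.52). As deposited, these intervals lie within 2-fold in either direction. Scaling to library size moved the median of all genes from -0.01 to -0.61, and the intervals were not set at that scaling. Birc5 was at 0.36 (0.03 to 0.72) and Top2a at 0.38 (0.10 to 0.67). Ccnb2, at 1.10 (0.37 to 1.95), Kif11, a spindle motor, at 1.06 (0.33 to 1.92) and Kif23, a motor of cytokinesis, at 1.05 (0.32 to 1.87) were called higher. Bub1 went from 14 to 3 reads, with -1.66 (-4.35 to -0.07). Foxm1 went from 17 to 5 reads, with -1.30 (-3.25 to 0.04), and its interval held no difference.

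Most red cell markers were highest in E(+)T(+). Of 18 erythroid markers listed, 17 were called higher than in E(−)T(+), with a median log2 fold change of 2.83, and they summed to 460443, 563556, 593384 and 3287781 reads. Hba-a1, Hbb-bs and Hbb-bt led them, and Gata1 had 0, 5, 8 and 59 reads. Sptb, with 382, 483, 426 and 449 reads, was not called. Tfrc, with 391, 626, 95 and 282 reads, was called higher but lay below both T(−) libraries. Of 10 macrophage markers 1 was called higher and 5 lower, and of 10 fibroblast markers 0 higher and 6 lower. The fibroblast markers summed to 33836, 50381, 71412 and 37377 reads. Over all genes, 9.39% were called higher and 10% lower. These calls are as deposited, and scaling to library size moved the median of all genes from -0.01 to -0.61. The part of red cell precursors in the values of the cell cycle genes was not tested.

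Comparing both groups directly, the ratio of mitotic to S phase reads within a library, which no scaling affects, was 0.832 (95% interval 0.765 to 0.905) in E(−)T(−), 0.879 (0.811 to 0.952) in E(+)T(−), 1.01 (0.95 to 1.07) in E(−)T(+) and 0.751 (0.712 to 0.792) in E(+)T(+). Between libraries, the odds ratio of the cancer control against the normal control was 1.21 (1.09 to 1.35). That of cancer exercise against cancer control was 0.744 (0.685 to 0.807), and that of normal exercise against normal control 1.06 (0.94 to 1.19). The shift toward mitotic reads in the cancer control grew to 1.44 (1.29 to 1.62) without Ccna2 and Kif20a. The lower ratio of the cancer exercise library depended on which genes were counted. Without E2f2 the odds ratio against the cancer control was 0.962 (0.883 to 1.05), and without E2f2, Ccna2 and Kif20a it was 1.02 (0.937 to 1.12). It stayed below 1, at 0.853 (0.782 to 0.931), without both E2f2 and Mki67. Another setting left out the cyclin E and E2F genes, E2f2 among them, and Ccna2, Top2a, Mki67 and Foxm1, and gave 0.876 (0.795 to 0.964). For E(+)T(+) vs. E(+)T(−) the odds ratio was 0.854 (0.776 to 0.941). Without E2f2, Ccna2 and Kif20a it was 1.43 (1.28 to 1.59), the opposite direction.

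**Figure D3:**
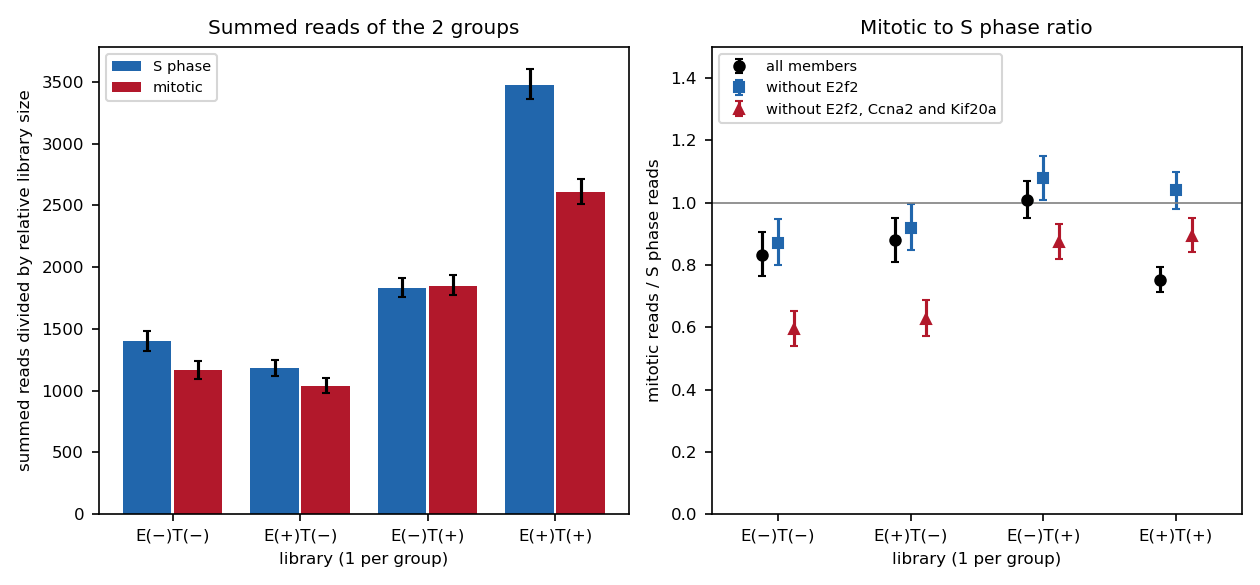
Left, summed reads of the S phase and mitotic genes divided by the relative library size, with 95% counting intervals, in the 4 libraries. Right, the ratio of mitotic to S phase reads in each library with its 95% interval, for all genes, without E2f2, and without E2f2, Ccna2 and Kif20a, where the ratios were 0.594, 0.627, 0.873 and 0.894 and both T(+) libraries lay above both T(−) libraries.

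The comparison E(+)T(−) vs. E(−)T(−) asks how running changed the heart of healthy mice. Several helicase and E2F genes were lower in the normal exercise library. Of 29 S phase genes that passed the count minimum 2 were called higher and 7 lower, and of 24 mitotic genes 1 higher and 3 lower, where 5.88% of 13937 genes were called higher and 6.4% lower. The stricter call left 1 and 6 S phase genes and 1 and 3 mitotic genes, against 3.61% and 3.88%. The median log2 fold change was -0.32 for the S phase and -0.11 for the mitotic genes, against 0.00 for all genes, and the sums were at -0.24 (-0.36 to -0.13) and -0.16 (-0.29 to -0.04). Mcm10, Aurkb and Bub1 did not reach the count minimum in either library.

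Helicase genes and E2F genes made up most of the lower S phase genes. Mcm5 had 29, 13, 38 and 48 reads, with -1.44 (-2.57 to -0.51). Mcm6, whose promoter is shown above, had 42, 20, 51 and 79 reads, with -1.38 (-2.26 to -0.61). Gins3 was at -1.28 (-2.27 to -0.46), and Gins1, with 14 and 7 reads, at -1.26 (-2.89 to 0.06). Mcm2, Mcm3, Mcm4 and Mcm7 lay between -0.48 and -0.28, and none of them was called. E2f1 was lower at -1.01 (-2.13 to -0.04), and E2f8, with 9 and 2 reads, at -2.08 (-5.76 to -0.24). Rrm2, with 7 reads and 1 read, was at -2.38 (-8.64 to -0.19). Tyms went the other way, at 1.66 (0.70 to 3.005). Uhrf1, with 3 and 13 reads, was also called higher, at 1.45 (-0.09 to 4.23), with an interval that held no difference. The licensing factor Cdc6 was at 0.82 (-0.405 to 2.45) and was not called. Of the mitotic genes, Cenpf, of the kinetochore corona, had 137, 86, 207 and 168 reads, with -1.01 (-1.42 to -0.61). Foxm1, with 13 and 3 reads, was at -2.13 (-4.91 to -0.59), Kif11, with 6 and 0 reads, was at least 2.53-fold lower, and Prc1 was higher at 1.19 (0.23 to 2.48). Each of Foxm1, Kif11, E2f8 and Rrm2 rests on 3 reads or fewer in the normal exercise library.

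The comparison E(+)T(+) vs. E(+)T(−) set the cancer exercise against the normal exercise library. Most genes of both groups were higher in the mice with cancer. Of 30 S phase genes 21 were called higher and 0 lower, and of 24 mitotic genes 19 higher and 1 lower, where 12% of 14289 genes were called higher and 11.1% lower. By the stricter call 19 S phase and 19 mitotic genes were higher and 0 and 1 lower, against 9.43% and 8.8% of all genes. The 1 lower gene was Kif20a, with -1.39 (-1.88 to -0.96). The medians were 1.36 and 1.54, and with scaling to library size, which moved the median of all genes from -0.01 to -0.74, they were 0.64 and 0.85, with 23 of the 57 genes called higher and 4 lower in place of 40 and 1. This comparison shares its libraries with those above, so its values add no independent evidence. E2f2 was at 4.17 (3.81 to 4.60), Mki67 at 3.78 (3.29 to 4.40), and Rrm2, against 1 read, at 4.82 (3.21 to 11.10). Kif11 was at least 16.1-fold and Mcm10 at least 7.25-fold higher. The MCM genes that were lower with running in healthy mice were higher here, Mcm5 by 2.08 (1.25 to 3.17) and Mcm6 by 2.20 (1.53 to 3.04).

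**Figure D4:**
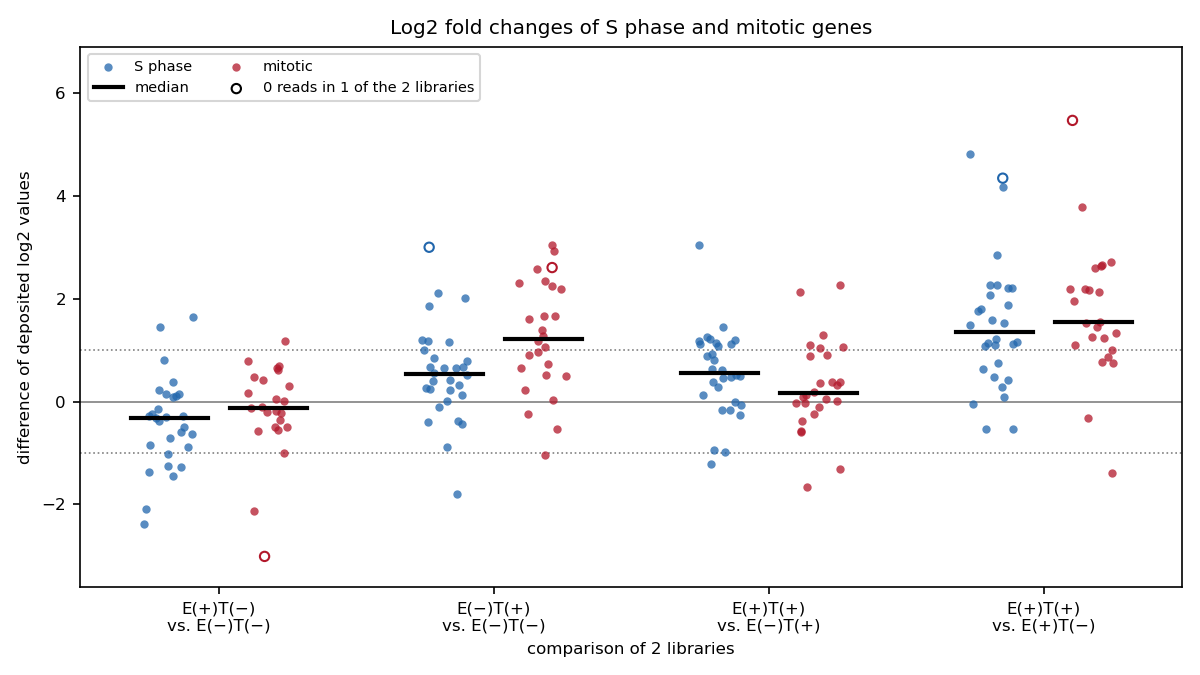
Log2 fold changes, as differences of deposited values, of the S phase (blue) and mitotic (red) genes that passed the count minimum in the 4 comparisons, with the median of each group as a bar, dotted lines at 2-fold and open circles where 1 library had 0 reads. The medians were -0.32 and -0.11, 0.54 and 1.22, 0.56 and 0.16, and 1.36 and 1.54, from left to right, and scaling to library size turns the third pair to -0.01 and -0.41.

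Stmn1 had 36, 55, 33 and 42 reads and was called in no comparison, with log2 fold changes from -0.49 to 0.65.

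Other genes of the same pathways, from longer lists, were read for comparison. Of 52 other mitotic genes that passed the count minimum, 25 were called higher and 0 lower in E(−)T(+) vs. E(−)T(−), with a median of 0.91. Of 39 other replication genes, 9 were called higher and 2 lower, with a median of 0.18. Over all genes, 14.6% were called higher and 13.1% lower. Anln, which anchors the contractile ring, had 0, 9, 67 and 22 reads and was at least 17.2-fold higher. Kif18a, a kinesin of chromosome alignment, had 0, 4, 19 and 12 reads and was at least 4.87-fold higher. Chaf1b, of the chromatin assembly factor, had 1, 5, 25 and 7 reads, a log2 fold change of 3.34 (1.66 to 9.62), and Timeless, a fork protection factor, was at -1.84 (-2.33 to -1.40). In E(+)T(+) vs. E(−)T(+) the medians were -0.01 for the other mitotic and 0.02 for the other replication genes. Of 54 mitotic genes 6 were called higher and 6 lower, and of 39 replication genes 4 higher and 2 lower. These counts lay near the shares over all genes, 9.39% higher and 10% lower. Kif14, a kinesin of cytokinesis, was at 1.71 (0.95 to 2.67) and Pbk, a mitotic kinase, at -1.92 (-3.61 to -0.78), and Clspn, a checkpoint adaptor of the fork, was at 1.35 (0.66 to 2.18). So the higher values of E2f2, Mki67 and Ube2c in E(+)T(+) were not shared by most of these genes.

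Among 28 regulators of the RB, E2F and CDK network, the CDK inhibitor p21 stood out. Cdkn1a, which codes for it and holds CDKs in check, had 553, 2341, 2856 and 6685 reads. Against the normal control its log2 fold change was 1.74 (1.61 to 1.88) with exercise and 1.99 (1.86 to 2.12) with cancer, and exercise in cancer-bearing mice gave 1.54 (1.47 to 1.60). As deposited, it was called higher in all 3 comparisons. In the last of them, scaling to library size moved the median of all genes from -0.01 to -0.61. Whether Cdkn1a would still be called there at that scaling was not tested. Tfdp2, a partner of E2F factors, had 838, 871, 3217 and 2322 reads, with 1.56 (1.45 to 1.67) in the cancer control. Ccnd2, cyclin D2, had 1189, 1455, 537 and 570 reads, with -1.52 (-1.68 to -1.38). E2f7, an E2F repressor, had 10, 13, 31 and 81 reads, and between the cancer exercise and cancer control libraries it differed by 1.66 (1.08 to 2.34). In that comparison 3 of 27 were called higher and 2 lower, against 9.39% and 10% of all genes, and in E(−)T(+) vs. E(−)T(−) 6 of 28 higher and 2 lower, against 14.6% and 13.1%.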

How the data were processed

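Heart mRNA-seq values of 4 libraries, 1 per group, were analysed. The authors made QuantSeq 3′ libraries, aligned the reads with Bowtie2 to mm10 and counted them with bedtools, by the submitters' processing notes and the paper, and normalized the read counts with a quantile method of edgeR. Tool versions are not given in the sources used here. The deposited values are on a log2 scale, 1 per gene and library. They are given back within 0.000563 by log2(quantile-adjusted count + 1) at a common dispersion of 0.149, from which whole reads were recovered. Of 25460 values from 5 to 99 reads, 100% came out whole to within 0.1. The step was checked on simulated data.

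The members, lists and tests were chosen with earlier results of these data known. Any member may be named, from each pathway list the 3 genes with the largest change in a comparison among those with 16 normalized reads, and from marker lists the 3 with the most reads and any at 0. Gata1, Tfrc, Sptb, Elane and Ms4a3 fall outside this and were chosen after their values were seen, as were the 4 promoters printed. No condition was tested, since a group held 1 library. Intervals are 95% Clopper-Pearson or exact conditional intervals. Both take reads as independent, which PCR copies are not, and leave out all other error. A library at 0 reads was set at a floor of 3 reads for bounds. Locations come from GENCODE M21, of the same build as the files. Epb42 and Ahsp of the erythroid list had no row. The 10 endothelial markers summed to 8311 to 9261 reads. Alternatives covered scaling, depth, count minimum, pseudocount, fold and left-out genes. Work was done in Python 3.11.15 (scipy 1.17.1, numpy 2.4.6, matplotlib 3.10.9, pandas 2.3.3).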

Additional observations from a re-analysis of the deposited data

Results flagged for a closer look

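For 2 genes, running went with opposite differences in healthy and cancer-bearing mice. The log2 fold change of Rrm2 was -2.38 between normal exercise and normal control, and it was 1.23 between cancer exercise and cancer control. That of Kif11 was -3.01 and 1.06 in the same comparisons. Rrm2 had 1 read and Kif11 had 0 reads in E(+)T(−), and each group had 1 library, so the difference between the comparisons was not tested. Samples that stand apart within a group could not be looked for, since a group held 1 library.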

How the results depend on the processing

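Over the alternatives run, 206 of the values that answer a comparison stayed the same, 61 moved and 5 reversed. Of the values of single genes and the counts of other lists, 1964 stayed the same and 232 moved. None was marked reversed, but counts could only stay or move, and a gene could reverse only if called at 2-fold as deposited. Changes of sign in genes not called were therefore not marked. A gene stayed the same when its value lay within its own counting interval, which is wide at few reads. With scaling to library size, the medians of E(+)T(+) vs. E(−)T(+) reversed to -0.013 for S phase and -0.41 for mitotic genes and the mitotic sum to -0.09, the S phase sum moved to 0.34, and 3 members were called higher and 7 lower. That scaling moved E(+)T(+) vs. E(+)T(−) to 23 higher and 4 lower, sums of 0.84 and 0.61 and medians of 0.64 and 0.85, and E(−)T(+) vs. E(−)T(−) to sums of 0.23 and 0.52 and medians of 0.40 and 1.07 (S phase, then mitotic). The share of higher among called members in E(+)T(+) vs. E(−)T(+) went from 84.2% to 30%, and from 97.6% to 85.2% in E(+)T(+) vs. E(+)T(−). The first was 78.9%, with 15 members higher and 4 lower, with scaling to the reads outside genes over 1% of a library. With scaling to the reads outside genes over 1% of a library, E(−)T(+) vs. E(−)T(−) had sums of 0.24 and 0.52 and medians of 0.40 and 1.07, and E(+)T(+) vs. E(+)T(−) sums of 1.38 and 1.16 and medians of 1.18 and 1.37.

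Thinned to the smallest library, the S phase median of E(−)T(+) vs. E(−)T(−) was 0.43 and 5 members were lower in E(+)T(+) vs. E(−)T(+). With a count minimum of 16, 6 members were lower in E(+)T(−) vs. E(−)T(−), and in E(+)T(+) vs. E(−)T(+) only 1, where the mitotic median was 0.33. With the minimum asked of both libraries, 6 were lower in E(+)T(−) vs. E(−)T(−). A pseudocount of 4 gave a mitotic median of 1.09 in E(−)T(+) vs. E(−)T(−) and an S phase median of 1.26 in E(+)T(+) vs. E(+)T(−). A fold of 1.5 gave 8 higher in E(+)T(−) vs. E(−)T(−) and 6 lower in E(+)T(+) vs. E(−)T(+).

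Without E2f2 and Ccna2, which had the most reads, the S phase sums of E(+)T(+) were 0.55 and 1.16 against E(−)T(+) and E(+)T(−), and the mitotic to S phase odds ratios 0.992 and 1.2, the latter reversed. Without the cyclin E and E2F genes, E2f2 among them, and without Ccna2, Top2a, Mki67 and Foxm1, the first odds ratio was 0.876. The remaining alternatives were chosen after seeing the data. Without E2f2 and Mki67 the same sums were 0.55 and 1.16, the mitotic sums 0.32 and 1.13, the odds ratios 0.853 and 0.982, and the S phase median against E(+)T(−) 1.23. Without Ccna2 and Kif20a, E(−)T(+) vs. E(−)T(−) had 1 lower member, a mitotic sum of 0.92, a median of 1.34 and an odds ratio of 1.44. In the same setting E(+)T(+) vs. E(−)T(+) had a mitotic sum of 0.59, and E(+)T(+) vs. E(+)T(−) 0 lower members, a mitotic sum of 1.67, a median of 1.76 and an odds ratio reversed to 1.08. Without the 13 members whose 3′ end overlaps another gene, the S phase median of E(+)T(−) vs. E(−)T(−) was -0.54, and E(−)T(+) vs. E(−)T(−) had 1 lower member, a mitotic sum of 0.87, a median of 1.34 and an odds ratio of 1.39. There E(+)T(+) vs. E(+)T(−) had 0 lower members, sums of 1.67 and 1.62, medians of 1.23 and 2.04 (S phase, then mitotic) and an odds ratio of 0.961. Causes were not tested beyond what an alternative leaves out.

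No paired analysis was possible because each group holds 1 library, so the groups share fewer than 2 replicate numbers, and leaving out a replicate gives no value. Depth limits the genes with few reads: at 10 reads or fewer, single-gene intervals often span over 4-fold.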
